A study of Homo sapiens with 6 samples.

Results

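Spectrins, ankyrins and the large linkers of actin are cytoskeletal proteins of several kinds, most of them long. The 9 mRNAs described here encode such proteins: SPTAN1, SPTBN1, ANK2, ANK3, DBN1, FLNA, MACF1, MYH9 and MYH10. They were taken by symbol from the mRNA table, which held 59609 rows, 19785 of them protein-coding, and all 9 symbols were found. The genes were chosen by their FPKM levels in the 3 RNA fractions, already known from these data, so those levels are given as a description and no test is made on them. The RNA came from untreated wild-type (WT) forebrain neurons differentiated from H9, an established human embryonic stem cell line, at day 26. The labels call these cells forebrain neurons in one field and neuron progenitor cells in another. Total-cell, cytoplasmic and nuclear RNA were depleted of ribosomal RNA and sequenced from stranded libraries, 2 replicates for each fraction and 6 libraries in all. All groups share cell line, age, genotype and treatment and differ in the RNA fraction alone, as far as the labels go. The labels do not say whether replicates were separate cultures, so p-values and SDs measure the spread between these libraries only, which may be technical.

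Spectrins are long flexible rods in which alpha and beta chains pair and then join short actin filaments into a lattice under the plasma membrane. In axons this lattice repeats at regular intervals. Ankyrins are adaptors that bind spectrin on one side and membrane proteins on the other, among them cell adhesion molecules and ion channels, and the ankyrin encoded by ANK3 organises the axon initial segment. Filamin crosslinks actin filaments, drebrin binds along them in growth cones and dendritic spines, MACF1 joins actin to microtubules, and the non-muscle myosins II pull on them. Most of these proteins and their mRNAs are long, drebrin being shorter.

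Levels were deposited as FPKM (fragments scaled for transcript length and for library size). This unit is a share of each library, so a value in the cytoplasm and one in the nucleus compare shares of 2 RNA pools and not molecules per cell. Read from the steps between low values of single-exon genes, the totals used for scaling were about 38700000 and 45700000 fragments for cytoplasmic, 120300000 and 111800000 for nuclear and 34900000 and 37400000 for total-cell libraries, if 1 step is 1 fragment. The circRNA values, read as reads per Gb of mapped bases, put the cytoplasmic above the nuclear libraries instead, with 20.1 and 20.8 Gb for cytoplasmic, 12.1 and 14.7 Gb for nuclear and 8.12 and 10.2 Gb for total-cell libraries. What the FPKM were divided by is therefore not known, and it enters each difference between fractions given here. Between 76.2% and 83.7% of those low values were whole steps within a tolerance of 0.05. As a check of the fractions, MT-CO1, encoded in the mitochondrial genome, had 1685 ± 187 FPKM (SD, n = 2) in cytoplasmic RNA and 194 ± 15.1 FPKM in nuclear RNA. Nuclear lncRNAs gave a mixed picture, since MALAT1 had 34.5 ± 0.0648 FPKM in cytoplasmic RNA and 70.4 ± 9.91 FPKM in nuclear RNA while NEAT1 had 0.532 ± 0.0046 and 0.408 ± 0.070 FPKM. MALAT1 stood at 753 ± 120 FPKM in total-cell RNA, above both fractions. Neuron and progenitor markers were both present, and none of 6 glial markers reached a mean of 1 FPKM, the filter used for testing.

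The mRNAs of both spectrin chains were several times higher in total-cell RNA than in either fraction, and higher in the nucleus than in the cytoplasm. SPTAN1, the gene of the alpha-II chain (chr9:128552558-128633662, plus strand, hg38), measured 9.01 and 7.80 FPKM in cytoplasmic RNA, 11.8 and 14.1 FPKM in nuclear RNA and 41.3 and 46.4 FPKM in total-cell RNA. SPTBN1, the gene of the beta-II chain that pairs with it (chr2:54456285-54671445, plus strand), measured 2.59 and 2.52, 5.80 and 6.71, and 24.4 and 27.7 FPKM in the same order. For both chains every nuclear library was above every cytoplasmic library, and both total-cell libraries were above all 4 others. The group means were 8.40 ± 0.856 and 12.9 ± 1.61 FPKM (SD, n = 2) for SPTAN1 in cytoplasm and nucleus, and 2.56 ± 0.0547 and 6.25 ± 0.643 FPKM for SPTBN1. On the log2(FPKM + 1) scale the cytoplasm-minus-nucleus difference was -0.56 ± 0.13 (limma SE) for SPTAN1 and -1.03 ± 0.13 for SPTBN1. The partner chains thus did not stand at equal shares, with SPTAN1 above SPTBN1 in each of the 6 libraries.

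The ankyrin mRNAs were low in both fractions and several times higher in total-cell RNA. ANK2, the gene of ankyrin-B (chr4:112818109-113383740, plus strand), measured 1.03 and 1.02 FPKM in cytoplasmic RNA, 1.27 and 1.54 FPKM in nuclear RNA and 9.25 and 10.9 FPKM in total-cell RNA. ANK3, the gene of ankyrin-G (chr10:60026298-60733490, minus strand), measured 0.269 and 0.268, 0.512 and 0.679, and 9.91 and 11.5 FPKM. Cytoplasmic and nuclear libraries did not overlap for either gene, and ANK3 was the lowest of the 9 genes in all 4 fraction libraries. The total-cell mean of ANK3 was 18.0 times its nuclear mean and 39.9 times its cytoplasmic mean, and that of ANK2 was 7.17 times its nuclear mean. ANK3 passed the filter through its total-cell level alone. The log2 differences, -0.25 ± 0.12 for ANK2 and -0.33 ± 0.11 (limma SE) for ANK3, are compressed at such low levels by the pseudocount of 1 FPKM. With a pseudocount of 0.1 FPKM they were -0.41 and -0.91, and the plain nuclear-to-cytoplasmic ratios were 1.37 and 2.22.

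The actin binders DBN1 and FLNA were the best expressed in the fractions. DBN1, the gene of drebrin (chr5:177456608-177474401, minus strand), measured 22.7 and 20.3 FPKM in cytoplasmic RNA, 44.1 and 47.1 FPKM in nuclear RNA and 60.8 and 62.0 FPKM in total-cell RNA. FLNA, the gene of filamin A (chrX:154348524-154374638, minus strand), measured 43.4 and 39.3, 61.1 and 68.8, and 44.4 and 48.0 FPKM. FLNA was the exception to the order seen elsewhere, since its total-cell libraries lay below its nuclear ones and just above its cytoplasmic ones. The log2 difference of DBN1 was -1.05 ± 0.13 (limma SE), level with SPTBN1 within that error, and its nuclear-to-cytoplasmic ratio was 2.12, below the 2.45 of SPTBN1. The log2 difference of FLNA was -0.64 ± 0.13 and its ratio 1.57.

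MACF1, the gene of a spectraplakin that joins actin to microtubules (chr1:39081316-39487177, plus strand), measured 1.21 and 1.11 FPKM in cytoplasmic RNA, 2.37 and 2.84 FPKM in nuclear RNA and 13.3 and 16.1 FPKM in total-cell RNA. Its log2 difference was -0.73 ± 0.12 (limma SE), and its total-cell mean was 5.64 times its nuclear mean. Its fractions stood in the same order as those of the spectrins and ankyrins, unlike those of FLNA.

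The non-muscle myosin II heavy chains parted company. MYH10, the gene of the IIB heavy chain (chr17:8474205-8630761, minus strand), measured 6.56 and 6.15 FPKM in cytoplasmic RNA, 9.98 and 11.97 FPKM in nuclear RNA and 26.0 and 29.7 FPKM in total-cell RNA. MYH9, the gene of the IIA heavy chain (chr22:36281277-36388067, minus strand), measured 21.4 and 19.3, 18.9 and 21.2, and 23.3 and 26.0 FPKM. The cytoplasmic and nuclear libraries of MYH9 overlapped, which held for no other of the 9 genes, and its log2 difference was 0.02 ± 0.13 (limma SE). That of MYH10 was -0.70 ± 0.13. Total-cell levels of the heavy chains overlapped between the genes, whereas the cytoplasmic and nuclear levels of MYH9 were above those of MYH10 in all 4 fraction libraries. The exon models of both genes have nearly the same length, 9012 and 9011 bases.

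**Figure D1:**
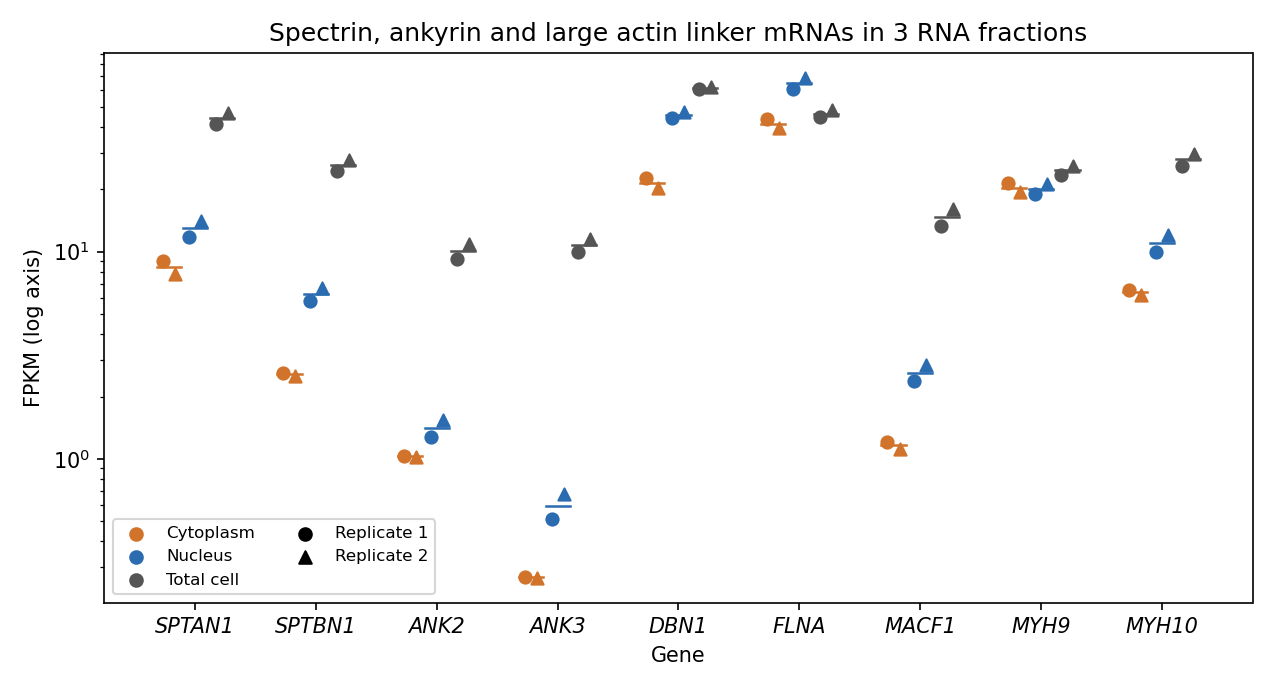
FPKM on a log axis of the 9 mRNAs in the cytoplasmic, nuclear and total-cell libraries, with circles for replicate 1, triangles for replicate 2 and a short line at each mean of 2 libraries. Total-cell points lie above both fractions for 8 genes, FLNA being the exception, and the fractions overlap for MYH9 alone.

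Set side by side per length, the 9 mRNAs kept one order of levels in both fractions. From high to low by mean it ran FLNA, DBN1, MYH9, SPTAN1, MYH10, SPTBN1, MACF1, ANK2 and ANK3. The libraries of DBN1 and MYH9 overlapped in the cytoplasm, and those of SPTAN1 and MYH10 in the nucleus, so these neighbours did not differ beyond their spread there. In total-cell RNA the order was DBN1 (61.4 ± 0.878 FPKM, SD, n = 2), FLNA (46.2 ± 2.54), SPTAN1 (43.9 ± 3.61), MYH10 (27.8 ± 2.62), SPTBN1 (26.0 ± 2.37), MYH9 (24.6 ± 1.92), MACF1 (14.7 ± 2.02), ANK3 (10.7 ± 1.13) and ANK2 (10.1 ± 1.18). Here the libraries of FLNA and SPTAN1 overlapped, as did those of MYH10, SPTBN1 and MYH9 and those of ANK3 and ANK2. The means lay closer together in total-cell RNA than in the fractions, with the ankyrins and MACF1 much higher there. Replicates also had a shared order: nuclear replicate 2 was above replicate 1, cytoplasmic replicate 1 above replicate 2 and total-cell replicate 2 above replicate 1 for all 9 mRNAs, as for 93.8%, 78.4% and 93.5% of all tested mRNAs.

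Against the whole transcriptome the 9 mRNAs lay on the nuclear side. Both nuclear libraries were above both cytoplasmic libraries for 8 of the 9 mRNAs, and for 2.4% of the 10244 protein-coding mRNAs that passed the filter, or 246 mRNAs. The opposite order was found for 0 of the 9 and for 93.7% of all. The median log2 cytoplasm-minus-nucleus difference was -0.64 over the 9 and 0.82 over all tested mRNAs, and the median nuclear-to-cytoplasmic ratio was 1.73 against 0.425. The rule used this contrast, so nothing is read from these counts. Since the nuclear libraries had a lower median FPKM than the cytoplasmic ones, differences were also taken after all libraries had been scaled to one median. The 9 differences then ran from -0.78 for ANK3 to -2.22 for DBN1, and that of MYH9 became -1.13, below 0 like the rest.

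Length went with this ordering over the transcriptome. The summed exon length counts each base covered by an exon of any GENCODE v29 transcript of a gene, so it can exceed the length of a single mRNA. It had a median of 5088 bases over all tested mRNAs and of 16236 bases over the 9, with DBN1 the shortest at 5119 and MACF1 the longest at 40739 bases. Across 10018 mRNAs with a length, the log2 cytoplasm-minus-nucleus difference fell with exon length (Spearman rho = -0.505, a description across genes, which share the same 6 libraries). The mRNAs were divided by length into 10 classes of equal number. In the class with the longest exons, from 10621 to 46064 bases, the median difference was 0.39 with quartiles of 0.11 and 0.64. SPTAN1, SPTBN1, ANK2, ANK3 and MACF1 belong to it, and all 5 lay below its lower quartile. Among the other 1001 mRNAs of that class, 3 lay below SPTBN1, 10 below MACF1, 17 below SPTAN1, 39 below ANK3 and 58 below ANK2. FLNA, MYH9 and MYH10 fall in the next class, which had a median of 0.54, and there 4 of 1001 others lay below FLNA, 2 below MYH10 and 83 below MYH9. DBN1 has an ordinary length, in a class that ran from 5090 to 5918 bases with a median of 0.83, and none of the 999 others lay below it.

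**Figure D2:**
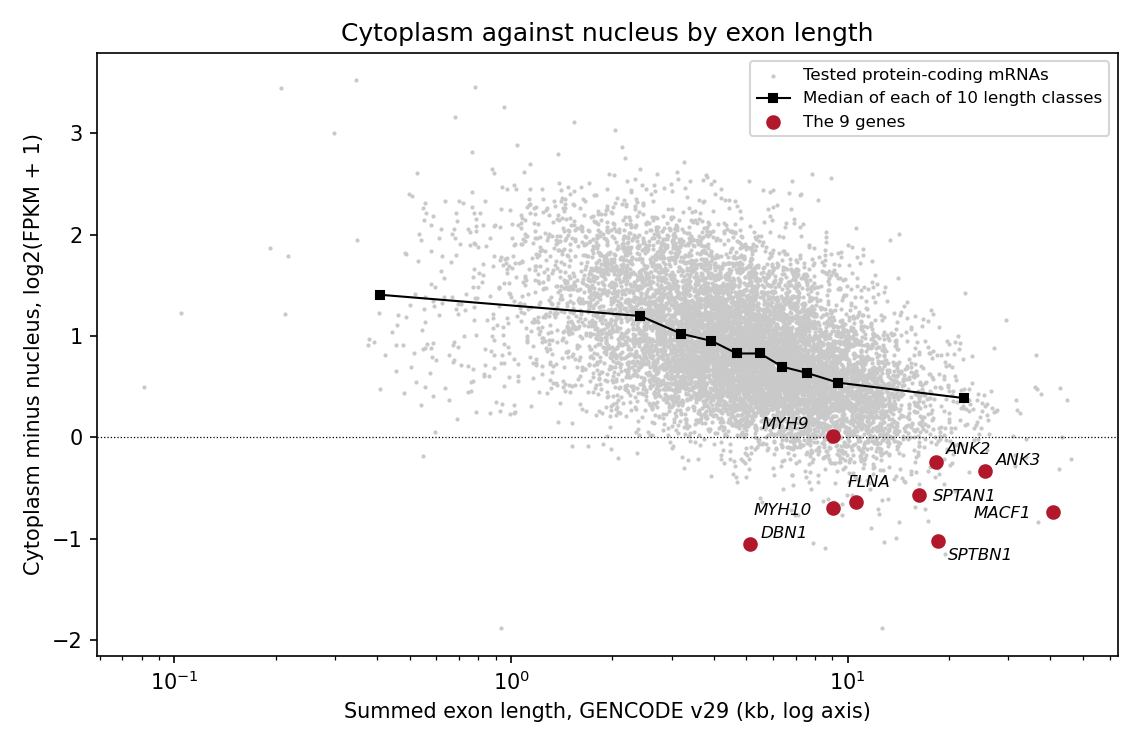
Cytoplasm-minus-nucleus difference on the log2(FPKM + 1) scale against summed exon length in kb (log axis), with grey points for tested mRNAs, black squares for the median of each length class and red points for the 9 mRNAs. The medians descend from 1.41 in the shortest class to 0.39 in the longest, and all 9 red points lie below the line.

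The excess of total-cell RNA over both fractions varied more among the 9 mRNAs than the difference between the fractions did. Both total-cell libraries were above all 4 fraction libraries for 8 of the 9, and for 49.6% of all tested mRNAs. The total-cell mean was more than 2 times the higher fraction mean for 6 of the 9 (21.5% of all) and more than 3 times for 5 (9.72% of all), which were the spectrins, the ankyrins and MACF1. Their ratios were 3.39 for SPTAN1, 4.16 for SPTBN1, 5.64 for MACF1, 7.17 for ANK2 and 18.0 for ANK3. MYH10 followed with 2.53, DBN1 with 1.35 and MYH9 with 1.21, and FLNA stood at 0.712. The median ratio was 3.39 over the 9 and 1.12 over all tested mRNAs. These levels too were known when the genes were chosen.

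Exon length went with this ratio as well, with a Spearman rho of 0.525 across the 10018 mRNAs and of 0.767 over the 9, both as descriptions. The rank correlation with the genomic span of the gene was 0.503 over the tested mRNAs and 0.883 over the 9, with the spans of ANK3 (707.2 kb), ANK2 (565.6 kb) and MACF1 (405.9 kb) the widest and those of FLNA (26.1 kb) and DBN1 (17.8 kb) the narrowest. In the class with the longest summed exons 59.6% had a ratio over 2 and the median was 2.31, with quartiles of 1.498 and 3.68. SPTAN1 lay between these quartiles, while 204 of the 1001 others were above SPTBN1, 120 above MACF1, 56 above ANK2 and 1 above ANK3. MYH10 lay inside the quartiles of its class (1.15 and 2.71, median 1.63), and 949 of 1001 others were above FLNA.

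**Figure D3:**
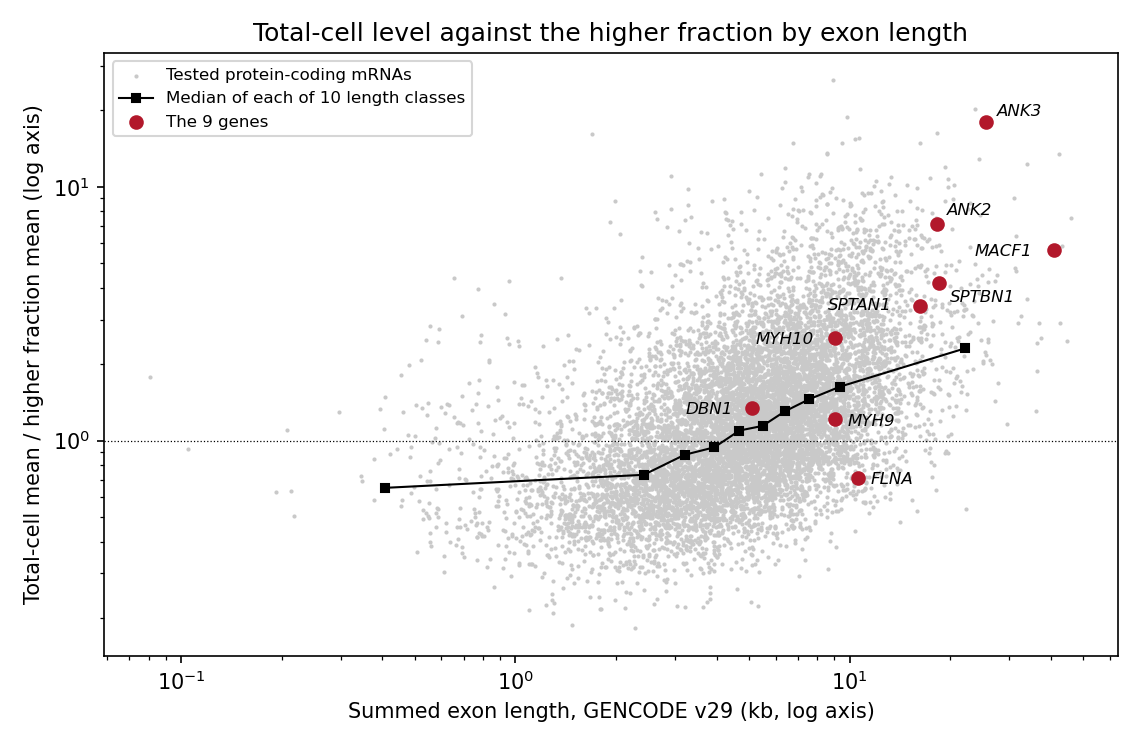
Total-cell mean divided by the higher of the cytoplasmic and nuclear means (log axis) against summed exon length in kb (log axis), with symbols for tested mRNAs, medians of the 10 length classes and the 9 mRNAs. The medians climb from 0.652 in the shortest class to 2.31 in the longest, with ANK3 at 18.0 and FLNA at 0.712 as the extremes of the 9.

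Markers of cell types moved with the same ratio. Of 8 neuron markers, all tested, the median ratio of total-cell RNA to the higher fraction was 2.72, and their summed level was 286 and 259 FPKM in cytoplasmic RNA, 86.5 and 102 FPKM in nuclear RNA and 541 and 612 FPKM in total-cell RNA. MAP2, a microtubule-binding protein of dendrites, had a ratio of 5.62 and DCX, of young migrating neurons, 3.52, whereas TUBB3, the neuronal beta-tubulin, had 0.861. Of 8 progenitor markers the median ratio was 0.720, with summed levels of 785 and 729, 336 and 366, and 430 and 458 FPKM, and VIM, the intermediate filament vimentin, had 0.494. Of 7 mesenchymal and smooth muscle markers 6 were tested, with a median ratio of 0.837 and summed levels between 45.4 and 71.1 FPKM over the 6 libraries. The 6 glial markers summed to at most 2.22 FPKM in any library. The part of cell composition in the total-cell excess was not tested, and in bulk RNA fewer cells of a type and less RNA per cell cannot be told apart. The deposited total-cell values also carried a median of 15 digits against 5 in the fractions, and whether both were processed by one route is not given in the sources used here.

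No single antisense gene overlapped more than 3.39% of the exon bases of any of the 9 mRNAs, and SPTBN1 and ANK3 had 2 such genes each. The widest overlaps were AC093110.1 with 627 bases of SPTBN1 and AL592430.1 with 830 bases of ANK3. AL592430.1 measured 3.09 and 3.59 FPKM in total-cell RNA and at most 0.246 FPKM in the fractions. Whether the counting used strand is not given in the sources used here, so reads of these stretches cannot be assigned to one strand.

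Genes outside the 9 from the same structures were then compared between cytoplasm and nucleus with limma, adjusted over all 10244 tested mRNAs by the Benjamini-Hochberg method. The limma p-values rest on a spread set by the intensity trend over all mRNAs. Values with each mRNA's own spread, a setting added after seeing the data, are given beside the smallest of them. Of 68 listed genes 57 were tested, of which 33 were higher in the cytoplasm, 8 lower and 16 not called. The same test called 90.1% of all tested mRNAs higher and 1.26% lower. The lists were chosen with earlier results of these data known, so counts per list are a description only. The median difference of the 57 was 0.41, or -0.41 relative to that of all tested mRNAs. After scaling to one median, 13 were higher and 33 lower, against 40.0% and 33.3% of all, so the direction of many of these genes depends on the scaling.

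Among close relatives outside the 9, ANK1, an ankyrin gene best known from the red cell membrane, was higher in the cytoplasm as deposited (0.35 ± 0.10, limma adjusted p = 0.000718) and lower after scaling (-0.21). SPTB, SPTBN4 and MYH14, another non-muscle heavy chain gene, were below the filter, at 0.851 and 0.917, 0.592 and 0.593, and 0.312 and 0.334 FPKM in total-cell RNA.

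Messages for the proteins that cap and stabilise the spectrin-actin junction, which are the adducins, the 4.1 proteins, dematin and the tropomodulins, had higher levels in cytoplasmic than in nuclear RNA, as most mRNAs did. All 11 were tested and all 11 were higher in the cytoplasm, near the 90.1% of all tested mRNAs. Their median difference was -0.30 relative to that of all tested mRNAs. After scaling 3 were higher and 2 lower, against 40.0% and 33.3% of all. TMOD1, a tropomodulin gene, passed the filter through its total-cell level alone. ADD1, an adducin gene, measured 20.7 ± 1.23 FPKM (SD, n = 2) in cytoplasmic RNA and 7.55 ± 0.550 FPKM in nuclear RNA (log2 difference 1.34 ± 0.13, limma adjusted p = 6.95e-25). With its own spread the limma adjusted p of ADD1 was 0.00394. ADD2 (1.16) stayed higher after scaling too, whereas the 4.1 protein genes EPB41 (0.92) and EPB41L1 (0.79) were not called after it (0.03 and -0.03). The exons of ADD1 and ADD2, summed over all transcripts of each gene, cover 13106 and 12673 bases, in the same length class as those of the spectrins. The lengths of their single mRNAs were not compared.

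Of 14 genes for membrane proteins that ankyrins hold in place or for other proteins of the axon initial segment, 11 were tested. After scaling 10 of the 11 were lower, against 33.3% of all tested mRNAs. As deposited 4 were higher, 1 lower and 6 not called, against 90.1% higher and 1.26% lower of all. CNTN1, an adhesion molecule anchored to the outer membrane face, was the lower one, with 0.811 ± 0.0011 FPKM (SD, n = 2) in cytoplasmic RNA, 1.37 ± 0.208 FPKM in nuclear RNA and 7.29 FPKM on average in total-cell RNA (log2 difference -0.39 ± 0.12, limma adjusted p = 0.00112). Without nucleus replicate 2 the limma adjusted p of CNTN1 was 0.0656. The adhesion molecules L1CAM (0.06) and NRCAM (-0.09) were not called as deposited, and stood at -1.01 and -0.99 after scaling. ATP1B1, the gene of a sodium pump subunit, was higher as deposited (0.70) and lower after scaling (-0.35). Total-cell RNA exceeded the higher fraction 5.31 times for CNTN1, 4.52 times for NRCAM and 3.37 times for L1CAM. The sodium channel genes SCN2A and SCN3A, not called as deposited and lower after scaling, passed the filter through their total-cell levels alone.

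The other large actin linkers held 6 of the 8 related genes called lower. Of 15 listed, 14 were tested, with 2 higher, 6 lower and 6 not called. Over all tested mRNAs 90.1% were higher and 1.26% lower. After scaling 13 of the 14 were lower, against 33.3% of all. PLEC, the gene of plectin, which ties intermediate filaments to actin, had a log2 difference of -0.71 ± 0.12 (limma adjusted p = 1.61e-08), and DSP, the gene of desmoplakin, one of -0.44 ± 0.10 (limma adjusted p = 7.58e-06). With each mRNA's own spread the limma adjusted p was 0.0028 for PLEC and 0.00968 for DSP. FLNC (-0.33), DST (-0.31) and SYNE1 (-0.21) were lower with limma adjusted p-values of 0.00965, 0.00303 and 0.0398. These 3 calls were lost when single libraries were left out. Without cytoplasm replicate 2 the limma adjusted p was 0.151 for FLNC and 0.0538 for DST, without nucleus replicate 2 it was 0.0883 and 0.0757, and for SYNE1 it was between 0.0931 and 0.238 without any 1 of the 4 fraction libraries. DST, DSP, SYNE1, UTRN (not called) and DMD (called higher) passed the filter through their total-cell levels alone. DST encodes the spectraplakin nearest to MACF1, and like ANK3 it was far higher in total-cell RNA (5.24 and 6.44 FPKM) than in the cytoplasm (0.161 and 0.148 FPKM) or nucleus (0.3895 and 0.479 FPKM), a ratio of 13.4 to the higher fraction. The alpha-actinin genes ACTN1 (0.75, called higher) and ACTN4 (0.12, not called) stood at -0.37 and -1.002 after scaling, and VCL, the gene of vinculin, at -0.01 as deposited and -1.10 after scaling.

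The partners of the myosin heavy chains were divided. Of 12 genes for light chains, kinases and phosphatase subunits of non-muscle myosin II, or its other heavy chain, 9 were tested, with 5 higher, 0 lower and 4 not called, against 90.1% of all tested mRNAs higher. After scaling 5 were higher and 4 lower, against 40.0% and 33.3% of all. The 4 not called were ROCK1 (-0.11), ROCK2 (-0.21), PPP1R12A (-0.05) and PPP1R12C (-0.16), genes of kinases and phosphatase subunits named after their values were seen. ROCK1 and ROCK2 passed the filter through their total-cell levels alone. Their means were 0.46 and 0.708 FPKM in cytoplasmic RNA and 0.571 and 0.982 FPKM in nuclear RNA, where the pseudocount of 1 FPKM compresses a difference. The limma call for the light chain gene MYL6 rested on 206 ± 1.93 FPKM (SD, n = 2) in cytoplasmic RNA and 40.0 ± 1.04 FPKM in nuclear RNA (log2 difference 2.34 ± 0.13, limma adjusted p = 1.78e-66). With its own spread the limma adjusted p of MYL6 was 0.0026. MYL12B (2.04), MYL12A (1.94) and the phosphatase catalytic subunit gene PPP1CB (1.24) were also higher, as deposited and after scaling. The heavy chains those light chains bind, MYH9 and MYH10, had log2 differences of 0.02 and -0.70. All 10 partners listed for drebrin were tested and higher in the cytoplasm, near the 90.1% of all tested mRNAs, 5 of them also after scaling, with 2 lower after it. CFL1, the gene of cofilin, which severs the actin filaments that drebrin protects, measured 217 ± 7.25 FPKM in cytoplasmic RNA and 47.0 ± 4.04 FPKM in nuclear RNA (log2 difference 2.18 ± 0.13, limma adjusted p = 4.15e-58), against 21.5 ± 1.68 and 45.6 ± 2.13 FPKM for DBN1. With its own spread the limma adjusted p of CFL1 was 0.0028. The drebrin-like gene DBNL (1.21), HOMER2 (1.30) and the cortactin gene CTTN (1.197) were higher too, CTTN without a call after scaling. AFDN, the gene of afadin, was higher as deposited (0.40, limma adjusted p = 0.00183), lower after scaling (-0.64), and not called without cytoplasm replicate 1 (limma adjusted p = 0.0781) or nucleus replicate 1 (limma adjusted p = 0.0891).

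**Figure D4:**
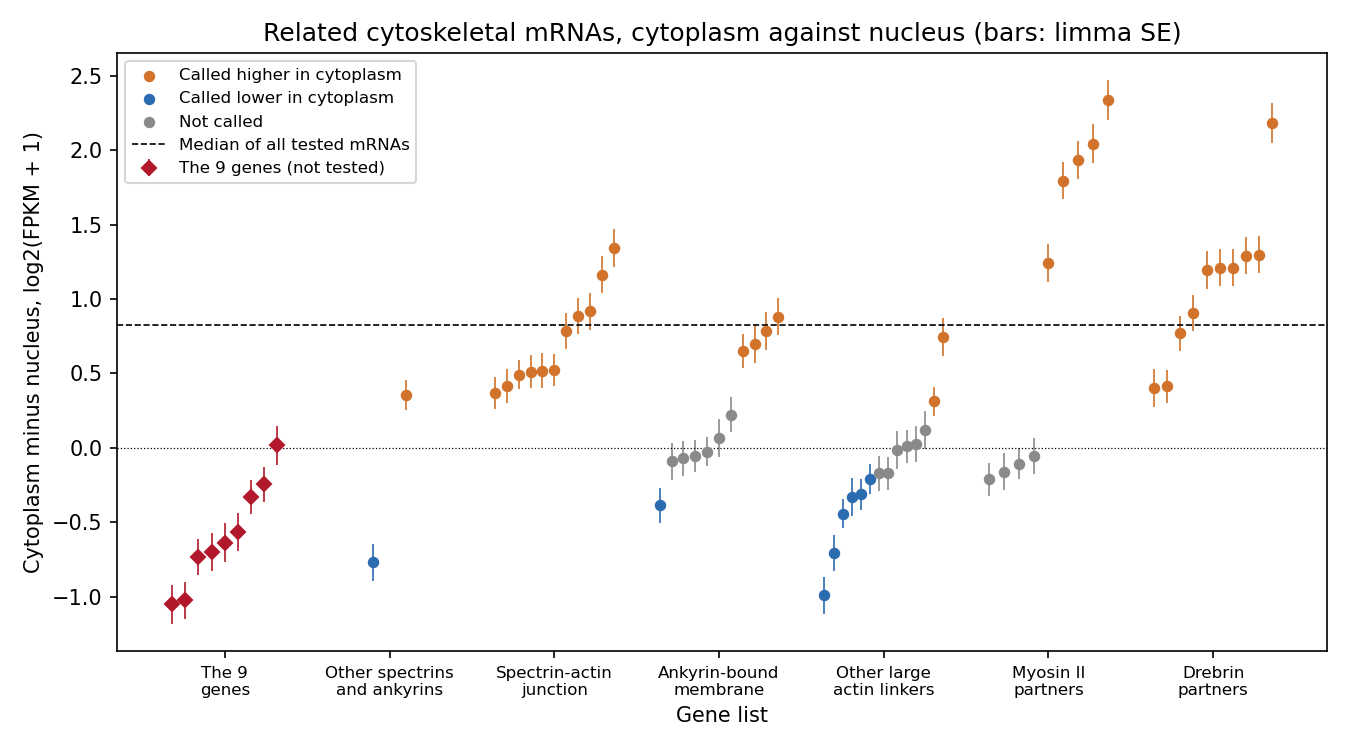
Cytoplasm-minus-nucleus difference on the log2(FPKM + 1) scale for the 9 mRNAs (red diamonds) and for 57 tested related genes in 6 lists, with limma SE bars, orange for genes called higher, blue for lower and grey for not called. The dashed line is the median of all tested mRNAs, 0.82, and 6 of the 8 blue points belong to the other large linkers.

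By Euclidean distance between centred log2 profiles over the 6 libraries, the mRNAs most like the mean profile of the 9 were TTC14 (0.10), AKAP12 (0.14), EPRS1 (0.18), EIF3A (0.19) and NIN (0.21). MYH10 itself lay at 0.13 from that mean, and FLNA, the farthest of the 9, at 2.101. AKAP12 measured 4.61 ± 0.469 FPKM in cytoplasmic RNA, 7.56 ± 0.862 FPKM in nuclear RNA and 19.2 ± 1.52 FPKM in total-cell RNA (SD, n = 2), close to the shape of MYH10.

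A readout that did not enter the choice of the 9 genes was their circular RNAs (circRNAs), closed rings of exons seen through reads across a back-spliced junction. Levels were deposited as FPB, taken to mean fragments per amount of mapped bases, and all values were whole multiples of 1 read in each library, worth between 0.0480 FPB (cytoplasm, replicate 2) and 0.123 FPB (total cell, replicate 1). Of 31559 rings in the table, 97 (0.307%) came from the 9 genes, and 72 of them were seen in 1 library only, against 63.6% of all rings. MACF1 gave 36 rings, ANK3 17, SPTAN1 and MYH10 13 each, ANK2 9, SPTBN1 and MYH9 3 each, FLNA 2 and DBN1 1. The typical host gene in the table gave 2 rings (median). Rings were many in kind for MACF1, ANK3, SPTAN1, MYH10 and ANK2, while SPTBN1, MYH9, FLNA and DBN1 were near that median. Reads per ring were few, with at most 20 over all libraries. The 6 rings with at least 10 reads over all libraries are shown by their back-splice junction, which identifies each ring. The sequences run 5′ to 3′ and were read from GENCODE v29 exons (hg38), with the end of the last exon in lower case and the start of the first exon in capitals.
MYH10 exons 5 to 7: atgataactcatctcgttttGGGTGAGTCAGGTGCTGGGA
MYH10 exons 25 to 27: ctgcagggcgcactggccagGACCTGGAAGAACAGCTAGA
MYH10 exons 25 to 26: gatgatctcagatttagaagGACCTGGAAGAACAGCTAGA
ANK3 exons 31 to 32: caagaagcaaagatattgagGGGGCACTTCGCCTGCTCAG
ANK2 exons 2 to 4: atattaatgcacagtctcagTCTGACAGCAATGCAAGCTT
MACF1 exon 72: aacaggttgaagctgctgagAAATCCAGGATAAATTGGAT

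The ring of MYH10 exons 5 to 7 (chr17:8569720-8577338, minus strand, 226 nt) had 4 and 0 reads in cytoplasmic RNA, 2 and 0 in nuclear RNA and 9 and 5 in total-cell RNA. The pair that begin at MYH10 exon 25 share the start of that exon, as the capitals show, and differ in where they end. The longer of them (chr17:8506318-8509949, 434 nt) had 6 and 4, 0 and 1, and 3 and 3 reads, and the shorter (chr17:8508554-8509949, 262 nt) 3 and 4, 0 and 1, and 3 and 2 reads. The ANK3 ring (chr10:60084602-60085253, minus strand, 326 nt) had 2 and 2, 0 and 0, and 4 and 6 reads. All rings of the 9 were short of the filter set for testing, a mean of 0.369 FPB, since the highest mean was 0.328 FPB. With the filter 3 times lower, chosen as an alternative, the 6 printed rings entered the test and none was called by limma or by edgeR, where limma called 3.69% of 2984 rings higher in the cytoplasm and 0.0335% lower, and edgeR 4.86% and 0.0335%. At an unadjusted p below 0.05 limma had 1 of the 6 (MYH10 exons 25 to 27, adjusted p = 0.191) and edgeR 0. What size of difference these read numbers could show was not tested.

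Summed by host gene the rings gave more reads. Over the 9 hosts there were 57 and 53 reads in cytoplasmic, 18 and 14 in nuclear and 48 and 59 in total-cell RNA. The pooled levels were 2.69 FPB in the cytoplasm (95% exact Poisson interval 2.21 to 3.24), 1.19 FPB in the nucleus (0.814 to 1.68) and 5.86 FPB in total-cell RNA (4.80 to 7.08). Intervals here cover counting error only. Both cytoplasmic libraries were above both nuclear ones for these rings, whereas the linear mRNAs of 8 of the 9 hosts had the opposite order. FPB and FPKM were scaled separately, and the difference between rings and mRNAs was not tested. The cytoplasm-to-nucleus ratio was 2.21 for rings of the 9 hosts and 2.24 for the sum of all rings in the table. The ratio of total-cell RNA to cytoplasm was 2.18 for these rings and 1.35 for all.

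By host, MACF1 rings had 20 and 22 reads in cytoplasmic RNA, 6 and 3 in nuclear RNA and 13 and 15 in total-cell RNA. MYH10 rings had 14 and 17, 2 and 5, and 17 and 19 reads. ANK3 rings had 8 and 4, 2 and 0, and 12 and 13 reads. In FPB the cytoplasmic level was above the nuclear level for all 3 hosts, at 1.03 against 0.335 for MACF1, 0.758 against 0.260 for MYH10 and 0.294 against 0.0744 for ANK3, the last resting on 2 nuclear reads. ANK3 stood highest in total-cell RNA relative to its fractions also in its rings, with 1.37 FPB (interval 0.886 to 2.02). SPTAN1 rings had 10, 3 and 3 reads over both libraries of cytoplasm, nucleus and total cell, and total-cell RNA (0.164 FPB) was not above the cytoplasm (0.245 FPB). ANK2 rings had 11, 5 and 7 reads, with overlapping intervals. MYH9, FLNA, DBN1 and SPTBN1, with at most 4 reads in any fraction, gave no readable order, and DBN1 and FLNA had 0 reads in total-cell RNA, which allows a level of up to 0.164 FPB by the limit of 3 reads over both libraries and of up to 0.202 FPB by the exact Poisson interval. The share of adenine in rings of the 9 hosts had a median of 30.3%, within the quartiles of 26.4% and 32.7% over 30237 reconstructed rings, whose median was 29.7%.

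**Figure D5:**
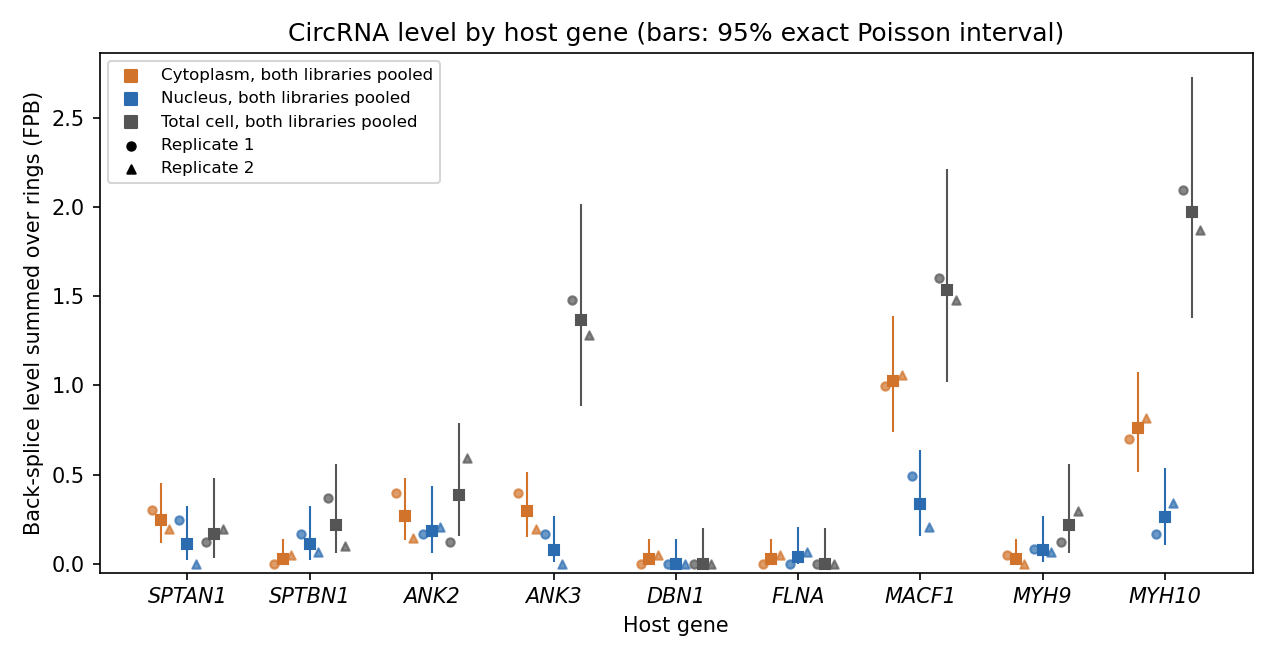
Back-splice level in FPB summed over all rings of each host gene, with squares for both libraries of a fraction pooled, bars for the 95% exact Poisson interval and small circles and triangles for replicates 1 and 2. MACF1, MYH10 and ANK3 carry most of the level, with total-cell RNA highest and the nucleus lowest for all 3.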

How the data were processed

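Gene levels were deposited by the authors as FPKM and circRNA levels as a signal in FPB, per the file headers, for 2 total-cell, 2 cytoplasmic and 2 nuclear libraries. Per the submitters' processing notes, the builds were GRCh38 and hg38 and the tools featureCounts 2.0.1, HISAT2 2.1.0, Bowtie, SAMtools 1.9 and Trimmomatic 0.39. Not given in the sources used here are the circRNA caller, the annotation, the gene lengths and the strand setting. Reads per gene could not be recovered, since the lengths behind FPKM are unknown. FPB values were whole multiples of 1 read in 100% of cases within a tolerance of 0.05 reads.

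From these values, protein-coding mRNAs (RefSeq type, or GENCODE v29 type where RefSeq had none) with a mean of at least 1 FPKM were fitted as log2(FPKM + 1) with limma 3.58.1 (R 4.3.3), as 3 fractions over 6 libraries, with an intensity trend and Benjamini-Hochberg adjusted p below 0.05. A difference on this scale understates the change of low genes. The prior degrees of freedom were infinite, so the trend alone set each spread and thereby the smallest p-values. CircRNAs were fitted likewise with a pseudocount of 0.123 FPB and a filter of 0.369 FPB, and with edgeR 4.0.16 on the recovered reads as an alternative. The fits were tested on simulated data. The 9 genes and the gene lists were chosen with earlier results of these data known. Named from each list are the 4 genes with the highest mean, those called lower, and near paralogues, and some genes that this rule names are left out of the text. Exon lengths, spans and junction sequences come from GENCODE v29. Alternatives were the pseudocount, the filter, the scaling, the trend, a replicate block, only the fraction libraries and each library left out. Each mRNA's own spread and edgeR with the lower filter were added after seeing the data.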

Additional observations from a re-analysis of the deposited data

How the results depend on the processing

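Of 117 recomputed differences of the 9 mRNAs, 104 moved by less than the limma SE and 13 by more. Many of the 104 could not move. The filter, the trend, the replicate block, each mRNA's own spread and leaving out total-cell libraries do not change a difference of cytoplasmic and nuclear means. Only the pseudocount, the scaling and leaving out a fraction library could move it. The 8 that were below 0 stayed so, and MYH9 went below 0 after scaling and without cytoplasm replicate 1 or nucleus replicate 1. All 9 moved after scaling to one median, to -1.67 (SPTAN1), -2.03 (SPTBN1), -0.97 (ANK2), -0.78 (ANK3), -2.22 (DBN1), -1.81 (FLNA), -1.58 (MACF1), -1.13 (MYH9) and -1.79 (MYH10), and 4 moved with a pseudocount of 0.1 FPKM. The 129 mRNAs called lower in the cytoplasm became 3416 after scaling, 72 with each mRNA's own spread (chosen after seeing the data) and 62 to 168 with 1 library left out. The related genes called higher went from 33 to 13 after scaling (31 to 34 with 1 library left out), and those called lower from 8 to 33 after scaling, 5 with each mRNA's own spread and 4 to 9 with 1 library left out. Scaling turned the sign of ANK1 (-0.21), EPB41L1 (-0.033), L1CAM (-1.01), ATP1B1 (-0.35), ACTN1 (-0.37), ACTN4 (-1.002) and AFDN (-0.64). By construction, scaling removes the common shift between the fractions. With each mRNA's own spread CNTN1, DST, SYNE1 and AFDN were not called (ordinary t-test, adjusted p between 0.0676 and 0.145). The 285 circRNAs called became 111 with the filter 3 times lower, 146 with edgeR and that filter (chosen after seeing the data), 1 when scaled by the mRNA factors and 15 to 261 with 1 library left out; the cause was not tested. Without cytoplasm replicate 1 or 2 the counts were 16 and 15. Replicate deviations correlated at 0.01 between cytoplasm and nucleus, 0.149 between cytoplasm and total cell and 0.461 between nucleus and total cell. Whether replicate numbers pair the samples is therefore not settled, and the main fit did not pair them. With the replicate block 9368 mRNAs were called in place of 9355, 130 lower, 33 and 8 of the related genes, and 305 circRNAs. No test of single rings of the 9 genes was possible at the planned filter, so its alternatives other than the lower filter gave no value.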
